A study of Homo sapiens with 12 samples.

Results

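Transcripts of 8 genes of the ephrin and Eph receptor family were followed in HMEC-1, a human microvascular endothelial line made from skin and immortalised, after transfection with 1 of 3 microRNA mimics. The genes were the ligands EFNA1, EFNB1 and EFNB2 and the receptors EPHA2, EPHA4, EPHB2, EPHB3 and EPHB4, matched by symbol among the 36433 symbols of the deposited table, which also held 14 other ephrin and Eph receptor genes. Every group received 50 nM of RNA with Lipofectamine RNAiMAX in EBM-2 medium with EGM-2 supplements and was collected after 48 h. The groups were the miR126 mimic, the miR143 mimic, the miR150 mimic and a scrambled RNA as the control, with 3 libraries each, numbered 2, 3 and 4 in the labels. The cells were a single line, and the labels do not say whether the 3 libraries of a group are separate cultures. The p-values here therefore reflect library-to-library spread only, which may be technical. The series is titled for pathological vessel growth in the retina. Each comparison asks which endothelial transcripts differ when a microRNA is raised.

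Ephrins are ligands fixed to the cell surface, and Eph receptors are tyrosine kinases of the neighbouring cell, so the family signals where cells touch, forward through the receptor and in reverse through the ligand. A-type ephrins are held by a lipid anchor, whereas B-type ephrins cross the membrane and signal through a cytoplasmic tail. In blood vessels, ephrin-B2 (EFNB2) is known as a mark of arterial endothelium and its receptor EPHB4 as a mark of venous endothelium, while EPHA2 and its ligand ephrin-A1 (EFNA1) are known for roles in vessel sprouting. A microRNA lowers transcripts whose 3′ untranslated region (3′ UTR) pairs with its seed, which is bases 2 to 8.

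The mature sequences show which letters a transcript would need in order to pair with a mimic. Of the 3 microRNAs, 2 were matched by name in RefSeq (GRCh38.p14). The labels do not say which arm the mimics carried, and the 3p arms are printed here from 5′ to 3′ with the seed in capitals. The first lies at chr9:136670653-136670674 on the plus strand and the second at chr5:149428978-149428998 on the plus strand.
hsa-miR-126-3p: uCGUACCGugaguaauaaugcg
hsa-miR-143-3p: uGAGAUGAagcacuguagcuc

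The longest coding 3′ UTR of each member (GENCODE 29, GRCh38) was searched on the sense strand for matches to these seeds. The miR-126-3p match is CGGTACG (bases 2 to 8) or GGTACGA (bases 2 to 7 followed by A), and 1.34% of 12429 3′ UTRs hold at least 1 of them. None of the 8 members held either, nor the shared 6-mer GGTACG. The miR-143-3p match is TCATCTC or CATCTCA, and 24.3% of the 3′ UTRs hold at least 1 of these. EFNB2, EPHA2 and EPHB2 each held 1 such 7-mer, and EFNA1, EFNB1 and EPHB4 held only the 6-mer CATCTC, which lies within both. EPHA4 and EPHB3 held none of these motifs. The shares of all 3′ UTRs that hold either 6-mer were not computed, so the 6-mer counts have no background. Sites of 4 genes are shown with the matching letters in capitals, namely the 7-mers of EFNB2, EPHA2 and EPHB2 and the 6-mer of EFNB1. The EFNB1 site was chosen because EFNB1 was the only member to pass with the miR143 mimic, and the other 6-mers are not printed. The printed sites lie at chr13:106491287-106491311 (EFNB2, minus strand), chr1:16124862-16124886 (EPHA2, minus strand), chr1:22917229-22917253 (EPHB2, plus strand) and chrX:68841402-68841426 (EFNB1, plus strand).
EFNB2: caagtcctccgaaggCATCTCAcgg
EPHA2: tctcccacatgaggcCATCTCAgga
EPHB2: tctcccatcaggggcTCATCTCcaa
EFNB1: ttgtgggattcttgggCATCTCctg
The EPHB2 match lies in a 3′ UTR of 7630 bases, longer than 97.5% of those searched, and that transcript carried 12% of the coding EPHB2 TPM. A letter match is a description of the transcript and does not show that a site is used.

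Values are TPM (a length-scaled transcript abundance), which sum to 1000000 in each library, so levels of different genes can be compared while the depth behind them is unknown. All 12 endothelial markers on the list, PECAM1 and CDH5 among them, averaged at least 1 TPM, and their summed level was 1931 to 2762 TPM in the control, 1444 to 2145 with miR126, 1952 to 2837 with miR143 and 1752 to 2629 with miR150. Of the 12 fibroblast and pericyte markers 8 averaged at least 1 TPM, with sums of 111 to 147 TPM in the control, 97.2 to 122 with miR126, 69.0 to 85.5 with miR143 and 48.3 to 85.7 with miR150, and of 8 epithelial markers 3 did, with sums of 450 to 635, 526 to 581, 732 to 953 and 903 to 1027 TPM in the same order. The epithelial sum came mostly from KRT18 (673 TPM on average), followed by KRT8 (37.3 TPM) and KRT19 (2.02 TPM). EPCAM averaged 0.870 TPM and reached 1.83 TPM, and CLDN4 averaged 0.445 and KRT14 0.0867 TPM. CDH1 stayed at or below 0.230 TPM and KRT5 at or below 0.169 TPM. In the limma test described below 4 epithelial markers were tested. KRT18 alone passed, higher than the control with miR143 and with miR150, where 1.84% and 1.08% of all genes rose. With miR126 0 passed. Of 8 leukocyte markers 2 averaged at least 1 TPM (CD68 and CD14), with sums of 30.4 to 49.3, 51.2 to 70.3, 43.3 to 63.2 and 27.8 to 59.7 TPM in the same order, and PTPRC stayed at or below 1.55 TPM. The part of these shifts in the results was not tested. Library 4 of the miR143 mimic and library 4 of the miR150 mimic stood apart, because their deviations from the mean of all libraries fell with transcript length (Spearman -0.40 and -0.55 over 13649 genes, against -0.01 to 0.29 in the other 10). Results of the members that rest on them are given with and without them.

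In the control cells EPHB4 was the most abundant member, at 161 ± 37.8 TPM (SD, n = 3), above 89.5% of all tested genes by its mean over the 12 libraries. EFNB1 followed at 77.2 ± 3.75 TPM, EPHA2 at 57.1 ± 4.84, EFNA1 at 48.6 ± 7.95, EPHB2 at 47.2 ± 5.57 and EFNB2 at 9.94 ± 1.44 TPM. The control libraries of EPHA2, EFNA1 and EPHB2 overlapped, so these neighbours in the order do not differ beyond their spread. EPHA4 averaged 1.21 ± 0.73 TPM and EPHB3 0.442 ± 0.203 TPM. The 8 members supplied 76.7% to 88.1% of the summed ephrin TPM and 96.4% to 98.6% of the summed Eph receptor TPM, depending on the library. The other family genes above 1 TPM on average were the ligands EFNA5 (15.4 TPM), EFNA4 (9.89) and EFNA3 (1.80) and the receptors EPHA5 (2.59) and EPHA1 (2.56). Both receptors overlap a more abundant gene on the opposite strand and are uncertain for that reason. EPHA1 overlaps ZYX, and EPHA5 overlaps the pseudogene AC115223.1, which measured 10.6 to 25.3 TPM.

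**Figure D1:**
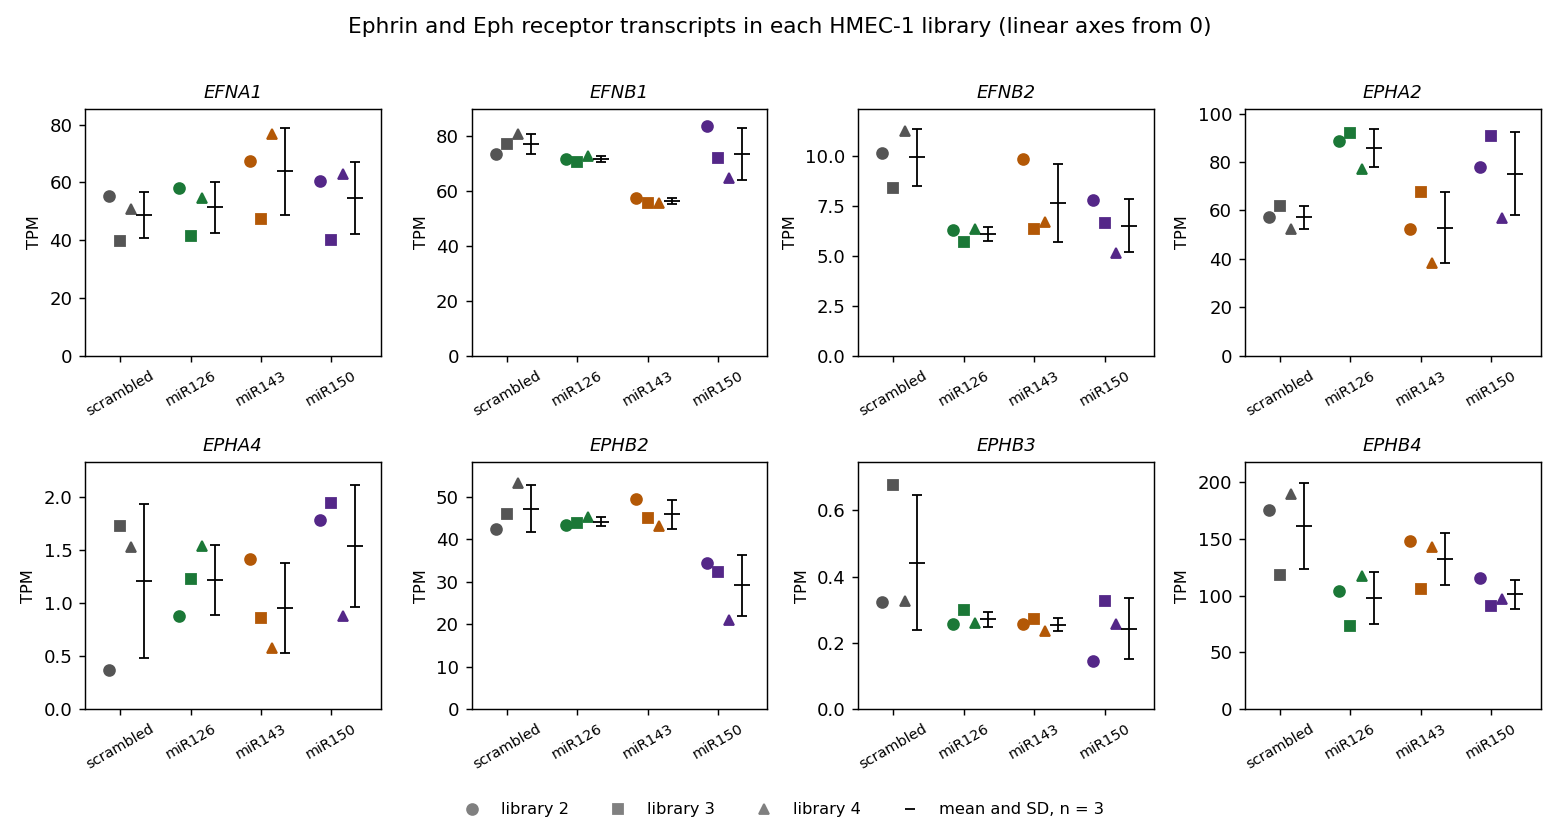
TPM of the 8 members in each of the 12 libraries, on linear axes from 0, by group on the x axis, with the library number as the symbol and the mean and SD of 3 libraries as the bar. EFNB1 was lower in all 3 miR143 libraries (55.8 to 57.7 TPM) than in any control library, EPHB2 in all 3 miR150 libraries (21.0 to 34.3 TPM), and EPHB4 and EFNB2 in all libraries with miR126 or miR150.

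Of the 8 members, 7 had at least 1 TPM in at least 3 libraries and were tested among 13750 genes with limma on log2(TPM + 1), a scale that understates changes of low genes. EPHB3 was not tested. With the miR143 mimic 1 of the 7 fell, the ligand EFNB1, where 1.48% of all genes fell and 3.32% passed in either direction. With the miR150 mimic 1 of the 7 fell, the receptor EPHB2, where 2.23% of all genes fell and 3.32% passed in either direction. With the miR126 mimic 0 of the 7 passed (5.11% of all genes did), and 3 had an unadjusted limma p under 0.05 (19.4% of all genes did), namely EPHB4, EFNB2 and EPHA2. These 3 passed once library number was a term of the fit, with EPHB4 and EFNB2 lower and EPHA2 higher, where 17.0% of all genes passed, 11.8% higher and 5.11% lower. The median log2 difference of the 7 members from the control was -0.09, -0.14 and -0.08 with miR126, miR143 and miR150, and that of all tested genes was 0.10, -0.04 and -0.11. With each library centred on its median gene, the medians of all genes moved to -0.04, 0.01 and 0.02. In bulk RNA, fewer cells that carry a transcript and less of it per cell cannot be told apart.

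**Figure D2:**
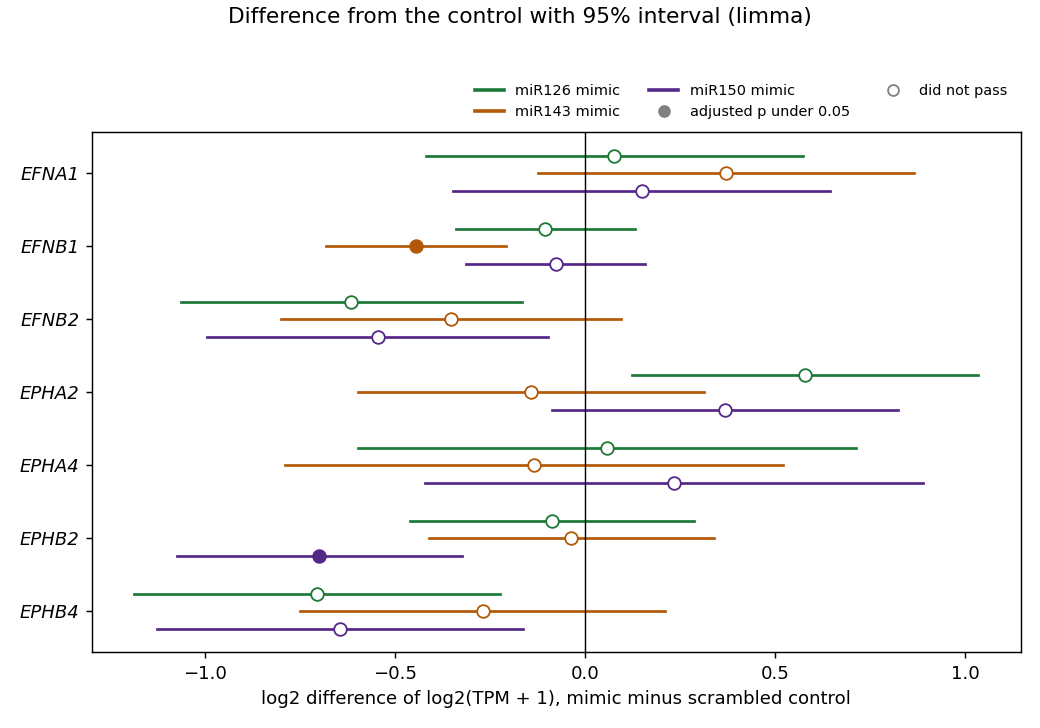
Log2 difference from the scrambled control (x axis, log2(TPM + 1) scale) with its 95% interval from limma, for the 7 tested members (y axis) and each mimic by colour. Filled points passed an adjusted p of 0.05: EFNB1 with miR143 (-0.45) and EPHB2 with miR150 (-0.70), while the intervals of EPHB4 and EFNB2 with miR126 and miR150 and of EPHA2 with miR126 also lay clear of 0.

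Among the ligands, ephrin-B1 (EFNB1, chr X, 68828997 to 68842147, plus strand), which binds EphB receptors, measured 73.4, 77.4 and 80.9 TPM in control libraries 2, 3 and 4. With the miR143 mimic it measured 57.7, 55.8 and 55.8 TPM. The 3 miR143 libraries lay close together and all below the control. The log2 fold change was -0.45 (SE 0.11, 95% interval -0.68 to -0.21, limma with Benjamini-Hochberg adjusted p = 0.0479). Of the 7 tested members, EFNB1 alone had miR143 and control libraries that did not overlap, a separation that 25.3% of all genes showed, 13.9% with miR143 below. The call was near the threshold. It passed without miR150 library 2 or 4 (adjusted p = 0.0365 and 0.0140) and was lost without any other single library of the 12, with limma adjusted p from 0.0578 to 0.208, although the fold change stayed between -0.48 and -0.41. Without both libraries that stood apart it was -0.44 (adjusted p = 0.0281), and with each library centred on its median gene -0.39 (adjusted p = 0.0882). A fit to the control and miR143 libraries alone gave an adjusted p of 0.0761.

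With the miR126 mimic EFNB1 measured 71.6, 70.7 and 72.7 TPM, just below the control libraries, with a log2 fold change of -0.11 (SE 0.11, limma adjusted p = 0.673). With miR150 it measured 83.6, 72.1 and 64.7 TPM, across the control range, and the difference of -0.08 became 0.05 after median centring and 0.0087 without the libraries that stood apart. Set against the other mimics, the miR143 libraries were the lowest. EFNB1 was 0.34 higher on the log2 scale with miR126 than with miR143 (SE 0.11, adjusted p = 0.140, or 0.0527 with the library number in the fit). This difference was 0.33 (adjusted p = 0.0825) without the libraries that stood apart, and it passed without miR150 library 4 alone (0.0473). It was 0.37 higher with miR150 than with miR143 (the miR143 minus miR150 difference was -0.37, SE 0.11, adjusted p = 0.125, or 0.0425 with the number in the fit). It was -0.45 (adjusted p = 0.0634) without the libraries that stood apart, and it passed without miR150 library 4 alone (0.0357) and after quantile normalization (0.0295).

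Ephrin-B2 (EFNB2, chr 13, 106489731 to 106535662, minus strand), the arterial ligand of EPHB4, measured 10.2, 8.40 and 11.2 TPM in the control libraries. It measured 6.28, 5.69 and 6.34 TPM with miR126 and 7.80, 6.65 and 5.13 TPM with miR150. The libraries of both mimics lay wholly below the control. With miR143 the values were 9.88, 6.34 and 6.73 TPM, which overlapped the control. The log2 difference with miR126 was -0.62 (SE 0.20, 95% interval -1.06 to -0.17, limma adjusted p = 0.112), and with the library number in the fit its adjusted p was 0.0345. It also passed after median centring (-0.75, adjusted p = 0.0206), after quantile normalization (0.0211), in a fit to the 2 groups alone (0.0396) and without the libraries that stood apart (0.0495). With miR150 it was -0.55 (SE 0.20, adjusted p = 0.189), or -0.41 (adjusted p = 0.313) without the libraries that stood apart, and with miR143 -0.35 (SE 0.20, adjusted p = 0.429), or -0.28 (0.480) without them. From high to low the groups were control, miR143, miR150 and miR126, and each overlapped the next. The coding transcript ENST00000245323.4 held 72.0% of EFNB2 TPM and a processed transcript, ENST00000643990.1, held 25.0%. In miR150 library 4 that order turned over, with 74.1% in the processed transcript. Over coding transcripts alone the miR126 difference was -0.51 (adjusted p = 0.523).

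Ephrin-A1 (EFNA1, chr 1, 155127460 to 155134857, plus strand), the preferred ligand of EPHA2, measured 55.4, 39.9 and 50.6 TPM in the control. It measured 58.2, 41.4 and 54.7 TPM with miR126, 67.5, 47.4 and 76.6 TPM with miR143, and 60.5, 40.2 and 62.9 TPM with miR150. All 4 groups overlapped, and library 3 was the lowest in each of them, a pattern shared by 9.43% of all genes. The log2 differences from the control were 0.08 with miR126 (-0.06 after median centring), 0.37 with miR143 and 0.15 with miR150 (SE 0.23 each, limma adjusted p = 0.916, 0.460 and 0.784). With the library number in the fit the miR143 adjusted p was 0.0288, but the numbers did not pair the miR143 and control libraries. EFNA1 was the member with the shortest transcripts (1169 bases on average, longer than 19.7% of tested genes, against 2215 bases or more for the others). Without the 2 libraries that stood apart the miR143 difference was 0.23 and the miR150 difference 0.03. A processed transcript, ENST00000497282.1, held 36.3% of EFNA1 TPM beside the coding ENST00000368406.2 with 56.5%.

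Among the receptors, EPHB4 (chr 7, 100802565 to 100827521, minus strand), the venous receptor for ephrin-B2, measured 176, 117.9 and 189 TPM in control libraries 2, 3 and 4. It measured 104, 72.8 and 117.3 TPM with miR126 and 115, 90.4 and 97.0 TPM with miR150. The libraries of both mimics lay below the control, with a narrow gap between miR126 library 4 and control library 3. With miR143 the values were 148, 106 and 143 TPM, which overlapped the control. Library 3 was the lowest of all 4 groups, so most of the spread within a group followed the library number. Each miR126 library measured 0.594, 0.618 and 0.620 times the control library of the same number (2, 3 and 4).

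The log2 difference of EPHB4 from the control was -0.71 with miR126 (SE 0.22, 95% interval -1.19 to -0.23, limma adjusted p = 0.0916). With the library number in the fit the SE was 0.11 and the adjusted p 0.00291. Without control library 3 the difference was -0.91 and passed (adjusted p = 0.0450), and in the other fits without 1 library it did not. With miR150 the difference was -0.65 (SE 0.22, adjusted p = 0.147), or -0.62 (adjusted p = 0.243) without the libraries that stood apart, and with miR143 -0.27 (SE 0.22, adjusted p = 0.600), or -0.33 (0.532) without them. With the library number in the fit the miR150 adjusted p was 0.00647, but the numbers did not pair the miR150 and control libraries. The groups had the same order as for EFNB2, from control over miR143 and miR150 to miR126, again with each overlapping the next. The miR126 and miR150 groups did not differ beyond their error, at -0.06 for miR126 minus miR150 (95% interval -0.54 to 0.42, limma adjusted p = 0.883), or -0.09 without the libraries that stood apart. EPHB4 overlaps SLC12A9 on the opposite strand, which measured 15.5 to 25.2 TPM, and the strand of the libraries is not given in the sources used here. A retained-intron transcript held 27.2% of EPHB4 TPM, and the coding transcripts ENST00000358173.7 and ENST00000360620.7 held 42.0% and 27.3%.

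EPHB2 (chr 1, 22710839 to 22921500, plus strand), a receptor for B-type ephrins, measured 42.3, 46.0 and 53.2 TPM in the control. With miR150 it measured 34.3, 32.2 and 21.0 TPM, all below the control and lowest in library 4. The miR126 libraries (43.4, 43.7 and 45.3 TPM) and the miR143 libraries (49.5, 45.0 and 43.0 TPM) lay within the control range or near it. The log2 fold change with miR150 was -0.70 (SE 0.17, 95% interval -1.07 to -0.33, limma adjusted p = 0.0499). It passed without miR150 library 2 or 3 (adjusted p = 0.0451 and 0.0468) and was lost without any other single library, with limma adjusted p from 0.0599 (without miR150 library 4, at -0.49) to 0.222. Without both libraries that stood apart it was -0.49 (adjusted p = 0.0457). A fit to the control and miR150 libraries alone gave an adjusted p of 0.257, a pseudocount of 0.1 gave 0.0515 and a fit without the filter on low values 0.0807.

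The miR150 libraries of EPHB2 also lay below every library of the other mimics. EPHB2 was 0.61 higher on the log2 scale with miR126 than with miR150 (SE 0.17, limma adjusted p = 0.0688, or 0.0329 with the library number in the fit), and 0.40 (adjusted p = 0.0803) without the libraries that stood apart. It was 0.66 higher with miR143 than with miR150 (SE 0.17, adjusted p = 0.0777, or 0.03645 with the number in the fit), and 0.49 (0.0937) without those libraries. The second difference also passed after median centring (0.59, adjusted p = 0.0215) and quantile normalization (0.0216). Against the control it differed by -0.09 with miR126 and by -0.04 with miR143 (0.01 after median centring and 0.0068 without the libraries that stood apart), with adjusted p of 0.857 and 0.945. Of its coding transcripts, ENST00000374632.7 held 55.7%, ENST00000374630.7 30.3% and ENST00000400191.7 11.8% of EPHB2 TPM. In miR150 library 4 the share of ENST00000374630.7 was 2.35%, against 36.0% and 38.2% in the other 2 libraries of that mimic.

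EPHA2 (chr 1, 16124337 to 16156087, minus strand), the receptor for ephrin-A1, measured 57.1, 61.9 and 52.3 TPM in the control. With miR126 it measured 88.5, 91.8 and 77.1 TPM, all above the control. With miR150 it measured 78.1, 90.5 and 56.7 TPM and with miR143 52.2, 67.7 and 38.5 TPM, and both overlapped the control. In every group library 3 was the highest and library 4 the lowest, and 18.9% of all genes had their highest value in library 3 of every group. Each miR126 library measured 1.55, 1.48 and 1.48 times the control library of the same number.

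The log2 difference of EPHA2 with miR126 was 0.58 (SE 0.21, 95% interval 0.12 to 1.03, limma adjusted p = 0.143), and with the library number in the fit the SE was 0.12 and the adjusted p 0.00938. It also passed in a fit to the 2 groups alone (0.0156) and without the libraries that stood apart (0.0166). With miR150 the difference was 0.37 (SE 0.21, adjusted p = 0.403), or 0.55 (adjusted p = 0.0613) without the libraries that stood apart. With miR143 it was -0.14 (adjusted p = 0.783), or 0.06 without them. The order of the groups was miR126, miR150, control and miR143, in which each neighbour overlapped the next. Between the ends of that order, miR126 lay 0.72 above miR143 (SE 0.21, adjusted p = 0.104, or 0.00523 with the number in the fit) with no overlap of libraries. It was 0.52 (adjusted p = 0.0764) without the libraries that stood apart, and 0.72 and past the threshold (0.0397) without miR150 library 4 alone.

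EPHA4 (chr 2, 221418027 to 221574202, minus strand), which binds ligands of both types, was near the limit of the filter, with 7 of 12 libraries at 1 TPM or more. It measured 0.374, 1.73 and 1.52 TPM in the control, 0.880, 1.23 and 1.54 with miR126, 1.42, 0.862 and 0.582 with miR143, and 1.78, 1.95 and 0.877 with miR150. All groups overlapped, and the limma adjusted p ranged from 0.736 to 0.956 against the control. The log2 differences were 0.06 with miR126 (-0.08 after median centring), -0.14 with miR143 (0.0053 without the libraries that stood apart) and 0.23 with miR150 (0.44 without them). EPHB3 (chr 3, 184561784 to 184582409, plus strand), a further receptor for B-type ephrins, measured 0.323, 0.677 and 0.326 TPM in the control, 0.257, 0.298 and 0.261 with miR126, 0.257, 0.274 and 0.235 with miR143, and 0.146, 0.326 and 0.258 with miR150. All 12 values were below the filter, and the miR126 and miR143 libraries lay under the control while those of miR150 overlapped it.

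Counted over the groups, 4 of 7 members had miR126 libraries that did not overlap the control, 1 above (EPHA2) and 3 below (EPHB4, EFNB2, EFNB1), beside 34.1% of all genes (23.1% above and 11.1% below). With miR150 the count was 3 of 7, all below (EPHB4, EFNB2, EPHB2), beside 21.5% of all genes (14.6% below). Between mimics 0 of 7 members passed in each of the 3 comparisons with limma, where 2.52% (miR126 against miR143), 3.91% (miR126 against miR150) and 2.19% (miR143 against miR150) of all genes passed, and 2, 1 and 3 members had an unadjusted p under 0.05, beside 16.0%, 21.6% and 14.2% of all genes. With the library number in the fit, 2, 1 and 3 members passed, beside 11.0%, 18.9% and 9.75% of all genes. Besides the members described above, these included EPHB4, lower with miR126 than with miR143 (-0.44, adjusted p = 0.361, or 0.0346 with the number in the fit), and -0.37 (0.497) without the libraries that stood apart. EPHA2 was also among them, lower with miR143 than with miR150 (-0.51, adjusted p = 0.286, or 0.0243 with the number in the fit), and -0.49 (0.169) without those libraries. The comparisons against the control share the same 3 control libraries.

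EPHB4 and EFNB2, the receptor and its ligand, were correlated over the libraries, less closely than each was with some genes outside the family. EPHB4 was between 12.8 and 21.2 times as abundant as EFNB2 in every library. The mean ratio was 16.0 ± 1.75 in the control, 16.0 ± 2.91 with miR126, 17.6 ± 3.23 with miR143 and 15.8 ± 2.78 with miR150 (SD, n = 3 each), so the groups overlapped. Their log2 values correlated with r = 0.85 over 12 libraries, the highest of the 21 pairs of tested members, and the libraries share groups and numbers. Outside the family, FKBP9 followed EFNB2 with r = 0.97 and ANPEP followed EPHB4 with r = 0.96. How many of all genes reach r = 0.85 was not computed, so a coupling particular to this pair is not shown. The ratio of the 2 B-type ligands, EFNB1 over EFNB2, was 7.19 to 9.21 in the control libraries, 11.4 to 12.4 with miR126, 10.7 to 12.6 with miR150 and 5.84 to 8.80 with miR143. All miR126 and miR150 libraries lay above the control range, and miR143 library 2 lay below it. EPHA2 ran the other way to EPHB4 (r = -0.71).

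**Figure D3:**
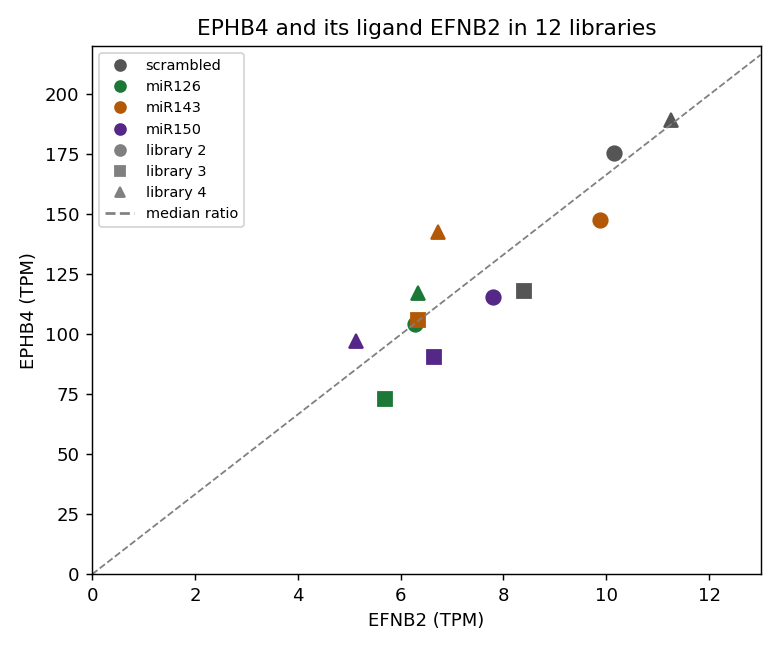
EPHB4 (y axis, TPM) against its ligand EFNB2 (x axis, TPM) in each of the 12 libraries, by group colour and library number, with a dashed line at the median ratio. The control libraries reach the highest values of both genes, the miR126 and miR150 libraries sit in the lower part, and the ratio stays between 12.8 and 21.2.

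Of the 14 other family genes 6 passed the filter, and 0 of the 6 passed the limma test against the control with any mimic (0, 1 and 1 had an unadjusted p under 0.05 with miR126, miR143 and miR150). Of all genes 5.11%, 3.32% and 3.32% passed, and 19.4%, 16.8% and 17.4% had an unadjusted limma p under 0.05. The A-type ligand EFNA4 measured 10.3, 8.40 and 9.99 TPM in the control and 11.5, 13.2 and 15.4 TPM with miR126, above every control library (log2 difference 0.44, adjusted p = 0.330). EFNA5, another A-type ligand, measured 15.6, 19.8 and 17.6 TPM in the control and 15.1, 13.3 and 6.31 TPM with miR150, below every control library and lowest in library 4 (-0.64, adjusted p = 0.278). Without that library its difference was -0.29 (adjusted p = 0.613). With the library number in the fit, EFNA4 and the B-type ligand EFNB3 were higher with miR126 than with miR143 (adjusted p = 0.0439 and 0.0192), and neither passed without it (0.131 and 0.0646). In that comparison 7.57% of all genes were higher with the number in the fit and 1.46% without it. EFNB3 also passed there without the filter on low values (0.0171), over coding transcripts (0.0393) and without miR150 library 4 (0.0475). EFNB3 averaged 0.857 TPM over all libraries.

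Genes that act with the family were followed on 4 lists of 62 genes, of which 55 were tested. With miR126 1 rose and 5 fell, with miR143 0 rose and 2 fell, and with miR150 0 rose and 3 fell, where 5.11%, 3.32% and 3.32% of all genes passed. Of all genes 3.37%, 1.84% and 1.08% rose and 1.73%, 1.48% and 2.23% fell. With the library number in the miR126 fit the counts were 3 and 10, where 17.0% of all genes passed, 11.8% higher and 5.11% lower. The lists were chosen with earlier results of these data known, so these counts are not a result about them. The 20 kinases and adaptors that bind activated receptors, such as SRC and NCK1, had 19 tested genes, and 0 passed with any mimic (3, 2 and 1 had an unadjusted limma p under 0.05, and 1 fell with miR126 once library number was in the fit). Their median log2 difference was 0.09, -0.17 and -0.32 with miR126, miR143 and miR150, beside 0.10, -0.04 and -0.11 for all genes. The list medians for miR143 and miR150 include the libraries that stood apart and were not computed without them. Without those libraries the median of all genes was 0.02 with both miR143 and miR150. Of all genes, 19.4%, 16.8% and 17.4% had an unadjusted limma p under 0.05 with miR126, miR143 and miR150. CHN1, a signalling protein known to act downstream of EPHA4, fell with miR150. It measured 76.9, 58.8 and 81.4 TPM in the control and 47.5, 37.7 and 44.2 TPM with miR150. With miR126 it measured 49.5, 44.1 and 52.2 TPM and with miR143 47.5, 44.1 and 50.8 TPM. The libraries of all 3 mimics lay wholly below the control, and only those of miR150 passed (-0.73, SE 0.14, limma adjusted p = 0.0203). With miR126 the difference was -0.55 (adjusted p = 0.0504, or 0.00318 with the library number in the fit) and with miR143 -0.59 (adjusted p = 0.05215). The miR150 call was lost without control library 2 (adjusted p = 0.110) or 4 (0.120), after median centring (0.135), and in a fit to these 2 groups alone (0.167).

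Partners of the ephrin-B tail had 8 tested genes of 12, of which 1 rose and 1 fell with miR126 (2 and 1 with the library number in the fit) and 0 passed with the other mimics (0 with miR143 and 3 with miR150 had an unadjusted limma p under 0.05). Of all genes 3.37% rose and 1.73% fell with miR126, or 11.8% and 5.11% with the library number in the fit. With miR143 and miR150 3.32% of all genes passed in each, and 16.8% and 17.4% had an unadjusted limma p under 0.05. The polarity protein PARD6A measured 2.11, 3.22 and 2.48 TPM in the control and 5.07, 5.40 and 6.62 TPM with miR126, without overlap (0.90, SE 0.21, limma adjusted p = 0.0336). The PDZ protein syntenin (SDCBP), which binds the tail of B-type ephrins, measured 468, 491 and 496 TPM in the control and 349, 368 and 368 TPM with miR126, also without overlap (-0.42, SE 0.11, adjusted p = 0.0424). With miR143 SDCBP measured 516 to 586 TPM, above the control, and with miR150 349 to 462 TPM, below it, while PARD6A overlapped the control with both. Both calls were near the threshold. SDCBP lost its call without any single library of the control, miR126 or miR143 (adjusted p from 0.0523 to 0.165), and PARD6A without control library 2 or 4 or any miR126 library (adjusted p from 0.0791 to 0.142) and after median centring (0.0973) or quantile normalization (0.103). Without the filter on low values both were lost (SDCBP 0.0686, PARD6A 0.0767).

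The list of proteases, phosphatases and ubiquitin ligases held most of the calls, with 15 of 16 genes tested. The lists were chosen with earlier results of these data known, so this share of the calls is not a result about the list. With miR126 0 rose and 4 fell (1 and 5 with the library number in the fit), and with miR143 and with miR150 0 rose and 2 fell. Of all genes 1.73%, 1.48% and 2.23% fell with miR126, miR143 and miR150. With the library number in the miR126 fit 11.8% of all genes rose and 5.11% fell. The median log2 difference of the list was -0.06, -0.51 and -0.43 with miR126, miR143 and miR150. It was not computed without the libraries that stood apart. The membrane matrix metalloprotease MMP14, known to cut EPHA2, measured 304, 311 and 327 TPM in the control, 76.8, 90.3 and 67.6 with miR126, 161, 173 and 142 with miR143, and 75.5, 101 and 63.2 with miR150. All 9 mimic libraries lay below the control, and the miR143 libraries lay between the control and the other mimics. The log2 fold changes were -2.001, -0.98 and -1.99 (SE 0.16 each, limma adjusted p = 9.95e-05, 0.00848 and 0.000269). The miR143 call was lost without control library 4 (adjusted p = 0.0517).

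ADAM19, a membrane metalloprotease, measured 41.5, 33.5 and 48.9 TPM in the control, 10.7, 8.66 and 9.24 with miR126, 22.7, 20.4 and 17.9 with miR143, and 13.4, 10.3 and 7.34 with miR150. It had the same order of groups as MMP14, with log2 fold changes of -1.996, -0.98 and -1.92 (SE 0.21 each, limma adjusted p = 0.000511, 0.0294 and 0.00057). The miR143 call was lost without control library 2 or 4, any miR143 library or miR126 library 4 (adjusted p from 0.0523 to 0.152) and without the filter on low values (0.0528). ADAM9, of the same family, measured 350, 305 and 381 TPM in the control and 123, 110 and 112 TPM with miR126 (-1.57, SE 0.23, adjusted p = 0.00325). It overlapped the control with miR143 and with miR150. The receptor phosphatase PTPRF measured 182, 186 and 178 TPM in the control and 88.5, 96.6 and 81.1 TPM with miR126 (-1.03, SE 0.25, adjusted p = 0.0386), a call lost without any single library of either group or miR143 library 3 (0.0538 to 0.128) and without the filter on low values (0.0823). PTPRF also lay below the control with miR143 (149, 136 and 98.9 TPM, -0.53, adjusted p = 0.328) and with miR150 (109, 128 and 56.5 TPM, -0.97, adjusted p = 0.0631). ADAM10, the best-known sheddase of ephrins, did not pass with any mimic (-0.18, -0.53 and -0.46, adjusted p = 0.832, 0.434 and 0.490).

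**Figure D4:**
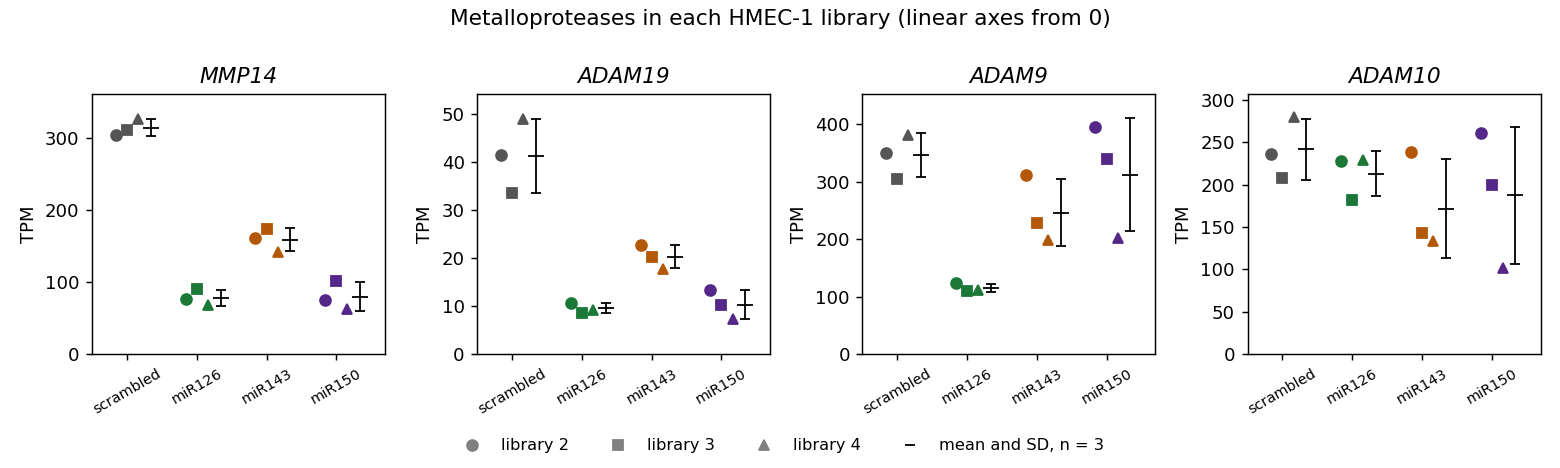
TPM of 4 membrane metalloproteases in each library, on linear axes from 0, by group on the x axis, with the library number as the symbol and the mean and SD of 3 libraries as the bar. MMP14 and ADAM19 were lower in all 9 mimic libraries than in the control, and ADAM10 overlapped the control in every group. ADAM9 lay wholly below the control only with miR126 (110 to 123 TPM), and overlapped it with miR143 (198 to 311 TPM) and with miR150 (202.5 to 394.6 TPM).

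Because EFNB2 and EPHB4 mark arteries and veins, other genes known from either vessel type were read beside them. Of 11 tested arterial genes 1 rose with miR126, where 3.37% of all genes rose, and 0 passed with miR143 or miR150. With miR143 and miR150, 3 and 2 had an unadjusted limma p under 0.05, beside 16.8% and 17.4% of all genes. With the library number in the miR126 fit 1 rose and 3 fell, beside 11.8% and 5.11% of all genes. The gene that rose was the receptor NOTCH4, at 11.99, 11.4 and 14.4 TPM in the control and 48.4, 26.3 and 43.7 TPM with miR126 (1.54, SE 0.33, limma adjusted p = 0.0229). The median log2 difference of the 11 arterial genes was -0.16 with miR126, so NOTCH4 does not stand for its list. That median was 0.03 with miR143 and -0.26 with miR150. With miR143 NOTCH4 measured 39.4, 16.6 and 36.8 TPM, also above the control, and with miR150 21.3, 13.01 and 22.03 TPM, which overlapped it. NOTCH4 overlaps GPSM3 in the annotation and is uncertain for that reason, and its call was lost without control library 2, 3 or 4 or miR126 library 2 or 4 (adjusted p from 0.0672 to 0.105) and without the filter on low values (0.0524). Of 7 tested venous genes 1 fell with miR126 and 2 with miR150, beside 1.73% and 2.23% of all genes. With miR143 0 passed, and 2 had an unadjusted limma p under 0.05, beside 16.8% of all genes. With the library number in the miR126 fit 2 fell, beside 5.11% of all genes. The median log2 difference of the venous list was -0.25, -0.11 and -0.56 with miR126, miR143 and miR150. The miR150 median is the value of ENG itself. The list held NR2F2, NRP2, FLT4, APLNR, TEK, SMARCA4, ENG and NT5E, and TEK is also on the endothelial marker list. It is therefore not confined to venous genes, and its counts and medians do not measure a venous program. Neither list median was computed without the libraries that stood apart.

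The venous transcription factor NR2F2 measured 170, 147 and 169 TPM in the control, 122, 95.9 and 106 with miR126, 129, 108 and 108 with miR143, and 89.7, 91.0 and 65.2 with miR150. The libraries of all 3 mimics lay below the control, those of miR150 lowest. The log2 fold change was -0.58 with miR126 (SE 0.15, limma adjusted p = 0.0461) and -0.99 with miR150 (SE 0.15, adjusted p = 0.00476), and the difference with miR143 was -0.49 (adjusted p = 0.109). The miR126 call was lost without any single library of either group, any miR143 library or miR150 library 2 (adjusted p from 0.0520 to 0.179) and without the filter on low values (0.0773), and the miR150 call in a fit to its 2 groups alone (0.0747). ENG, a TGF-beta co-receptor of endothelium, measured 383, 373 and 374 TPM in the control and 273, 272 and 225 TPM with miR150, without overlap (-0.56, SE 0.09, adjusted p = 0.00674, or 0.0620 after median centring and 0.137 in a fit to these 2 groups alone). With miR126 ENG measured 313, 322 and 312 TPM, also below the control (-0.25, adjusted p = 0.138, or 0.0436 with the library number in the fit). No call of a gene named on the pathway, arterial or venous lists was lost without the 2 libraries that stood apart.

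Outside the family, the genes whose log2 values followed each tested member most closely were chosen by Pearson r over the 12 libraries, which share groups and numbers. They were LIMS2 and UBE2L3 for EFNA1 (r = 0.96 each), KIF3B (0.95) and PLAGL2 (0.94) for EFNB1, and FKBP9 and ITGA4 for EFNB2 (0.97 each). For the receptors they were MPP2 (0.94) and DHX34 (0.93) for EPHA2, C1orf109 (0.84) for EPHA4, TRIQK and SZRD1 (0.98 each) for EPHB2, and ANPEP (0.96) and GNAI2 (0.95) for EPHB4. C1orf109 followed EPHA4 less closely than the genes named for the other members followed theirs.

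The letter matches can be read beside these values. Of the 3 members with a 7-mer match to miR-143-3p (EFNB2, EPHA2 and EPHB2), 0 passed with the miR143 mimic in limma. Of all genes 3.32% passed. The log2 differences of the 3 were -0.35, -0.14 and -0.04, or -0.28, 0.06 and 0.0068 without the libraries that stood apart. The EPHB2 match lies in a transcript with 12% of the coding EPHB2 TPM. EFNB1, which fell with that mimic, holds the 6-mer alone, as do EFNA1 and EPHB4, which did not pass. The share of all 3′ UTRs with that 6-mer was not computed. EPHB4 and EFNB2 held no match to miR-126-3p, and neither did the other members. Of the 3′ UTRs searched 1.34% held 1 of its 7-mers or more. Whether any match was used was not tested.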

How the data were processed

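RNA sequencing values of 12 HMEC-1 libraries were used. The authors' deposited values are TPM per transcript, made with kallisto, per the submitters' processing notes, which also name FastQC, sleuth and GRCh38 (hg38), whereas versions, the transcript annotation and filters are not given in these sources. The labels' protocols name total RNA and, for the libraries, a microRNA preparation. All 187626 transcripts were read, 171 without a gene were left out, and TPM were summed per symbol. Each column summed to 1000000 TPM, so depth is unknown and a rise of some genes lowers others.

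The filter on low values kept 13750 genes that reached 1 TPM in 3 or more libraries. They were compared on log2(TPM + 1) with limma 3.58.1 in R 4.3.3 (two-sided, mean-variance trend, group as the only term, all 12 libraries), with p-values adjusted by Benjamini-Hochberg within each comparison and a threshold of 0.05. The fit was tested on simulated data. Residuals of libraries with the same number correlated by 0.29, 0.63 and 0.40 (numbers 2, 3 and 4) for miR126 against the control, 0.32, 0.66 and 0.37 for miR126 against miR143, 0.29, 0.55 and 0.28 for miR126 against miR150, and 0.59, 0.63 and 0.74 for miR143 against miR150. All exceed 0.1, so the replicate block is given there where it changed the call of a gene described or a count of calls. What the numbers mark is not stated.

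All 8 members are named; of the other lists, every gene past the threshold against the control, up to 6 per list and comparison, other family genes with a mean of at least 1 TPM, the 2 genes most correlated with each member, and transcripts with at least 10% of a member's TPM. EFNB3 was added after its values were seen. The separate result of 1 pathway list and 1 correlated gene are not reported here. Members and lists were chosen with earlier results of these data known. Alternatives were another pseudocount, no filter, centring on the median gene, quantile normalization, fits to 2 groups, coding transcripts only, and leaving out libraries. Positions and 3′ UTRs came from GENCODE 29.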

Additional observations from a re-analysis of the deposited data

How the results depend on the processing

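The number of members past the threshold was small and depended on the fit. For miR126 against the control it was 0, and 3 with the replicate block, 1 with centring on the median gene, 1 with quantile normalization, 2 in a fit to the 2 groups, 2 without both replicate 4 libraries that stood apart, and 3 with the block and without those libraries (a combination chosen after seeing the data). For miR143 against the control it was 1, and 2 with the block, 0 with centring, 0 in the 2-group fit and 2 with the block and without those libraries. For miR150 against the control it was 1, and 2 with the block, 0 with a pseudocount of 0.1, 0 without a filter, 0 in the 2-group fit and 3 with the block and without those libraries. For miR126 against miR143, miR126 against miR150 and miR143 against miR150 it was 0, and 2, 1 and 3 with the block and 3, 1 and 4 with the block and without those libraries, and for the last pair 1 with centring and 2 with quantile normalization. Leaving out each library gave 0 to 1 for each mimic against the control, 0 to 2 for miR126 against miR143, 0 to 0 for miR126 against miR150 and 0 to 1 for miR143 against miR150.

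For miR143 and miR150 against the control the numbers did not pair the libraries (residual correlations 0.04, 0.65 and 0.17, and 0.07, 0.60 and 0.07; 2 of 6 libraries correlated best with their own number in each). There the block gave EFNA1 with miR143 (adjusted p = 0.0288) and EPHB4 with miR150 (0.00647) beside EFNB1 (0.0166) and EPHB2 (0.0257). Over all genes, miR126 against the control gave 464 higher and 238 lower genes, 1629 and 702 with the block, 354 and 547 with centring and 482 and 547 with quantile normalization.

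These log2 differences changed sign. With miR126 they were EFNA1 (-0.0607 with centring, -0.0134 with quantile normalization), EPHA4 (-0.0803 and -0.0971), EFNA5 (-0.0880 and -0.0968, and -0.0600 with coding transcripts only) and EFNA3 (0.171 with coding transcripts). With miR143 they were EPHA2 (0.0612 without both replicate 4 libraries), EPHA4 (0.00534 without them, 0.121 with the block too), EPHB2 (0.0143 with centring, 0.00679 without them, 0.0603 with the block too) and EFNA3 (0.0646 with coding transcripts). With miR150 they were EFNB1 (0.0499 with centring, 0.00867 without them, 0.0308 with the block too), EFNA4 (0.0134 with centring, 0.0229 with quantile normalization) and EFNA3 (0.119 with coding transcripts). Leaving out 1 library, those that changed sign ranged with miR126 from -0.0571 to 0.222 (EFNA1), -0.254 to 0.2399 (EPHA4), -0.162 to 0.000945 (EPHB2), -0.205 to 0.227 (EFNA3) and -0.0333 to 0.130 (EFNA5). With miR143 they ranged from -0.339 to 0.0612 (EPHA2), -0.447 to 0.0470 (EPHA4), -0.111 to 0.0520 (EPHB2), -0.255 to 0.148 (EFNA3) and -0.197 to 0.2399 (EPHA5). With miR150 they ranged from -0.174 to 0.00867 (EFNB1), -0.0768 to 0.437 (EPHA4), -0.373 to 0.0299 (EFNA3) and -0.200 to 0.0286 (EFNA4). EPHB4 in miR126 minus miR150 ranged from -0.203 to 0.138. Of 258 member values under the other alternatives, 207 kept direction and call, 5 lost and 33 gained a call and 13 changed sign, and of 348 without 1 library 310, 20, 4 and 14 did. The cause of these changes was not tested. TPM keep no depth, so counting error at low members such as EPHA4 and EPHB3 is unknown.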
